A study of Homo sapiens with 8 samples.

Results

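Notch signaling was examined through 10 genes in A549 cells, an established human lung carcinoma line: the receptors NOTCH1, NOTCH2 and NOTCH3, the ligands JAG1, JAG2 and DLL1, the DNA-binding partner RBPJ, and the target genes HES1, HES4 and HEY1. They were taken by symbol from 19056 genes that the probes of the arrays could be matched to, and each of the 10 had at least 1 probe. A549 cells received EEDS, an ethanol extract of Descurainia sophia seeds, at 1.25, 5 or 20 μg/mL, or helveticoside, a cardiac glycoside found in that extract, at 3.75, 15 or 60 nM, and each agent had a vehicle control of its own. The time of exposure is 24 h in the study's methods for the arrays and 48 h in the sample labels, whose protocol describes a viability assay, and the methods dissolve EEDS in dimethyl sulfoxide. Each of the 8 groups had 1 one-colour array of RNA pooled from 3 cultures, so no value has a replicate error, and a difference between agents cannot be told apart from a difference between the array series.

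Notch receptors are single-pass membrane proteins that are bound by Jagged or Delta-like ligands on a neighbouring cell. After ligand binding, ADAM proteases and then gamma-secretase cut the receptor, and the freed intracellular part enters the nucleus, where it binds RBPJ and Mastermind coactivators on DNA. HES and HEY genes, which encode repressors of transcription, are the best known direct targets, and HES1 represses its own gene. In the airway, the pathway is known for its part in the choice between secretory, ciliated and neuroendocrine fates.

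Values are normalized signals, that is, the background-subtracted brightness of a probe after the 8 arrays were brought to the same distribution. A log2 ratio sets a dose against the control array of the same agent, so that the 3 doses of an agent share a control, and a gene was called past 2-fold when this ratio lay above 1 or below -1. The scanner software's estimate of within-array error was about 0.20 for most members' log2 ratios. For the brighter probes the software gave a near-constant error of about 10% of the signal on each array. The estimate says nothing of the spread between cultures. The 2 vehicle controls, which received neither agent, differed from each other with an SD of 0.50 (log2) over the 12389 genes measured on both. The middle 90% of genes lay between -0.72 and 0.90.

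Across the 8 arrays, the median signal of the probe spots, without control spots, was between 182 and 278. The software called 54.5% to 64.9% of the probes well above background. Spots that carry no probe for a transcript, the dark corners, read 34 to 36 on the EEDS arrays and 118 to 141 on the helveticoside arrays, and the part of this offset in the results was not tested. The epithelial markers KRT8, KRT18, KRT19, EPCAM and CDH1 were well above background on all 8 arrays, and so were 5 markers of A549, a line with active NRF2 (AKR1B10, AKR1C1, NQO1, ALDH1A1 and TXNRD1). Of the markers of other cell types, CD3E, PECAM1, VWF, COL1A2, PDGFRB and DCN were well above background on no array, and PTPRC, CD14, CDH5 and COL1A1 on all 8. The summed signal of the 5 epithelial markers was 496257 in the EEDS control against 314344 at 20 μg/mL, and 408360 in the helveticoside control against 262569 at 60 nM. KRT18 made up most of this sum (397375 and 266637 with EEDS, 334750 and 226544 with helveticoside). KRT8, KRT19 and CDH1 were lower at both top doses, whereas EPCAM was 666 and 688 with EEDS and 627 and 524 with helveticoside. Of the A549 markers, TXNRD1 was higher at both top doses (5326 and 10091, then 4869 and 7016). AKR1B10, AKR1C1, NQO1 and ALDH1A1 were lower at both. Of the markers of other cell types well above background, the immune marker CD14 was 2824 and 951 in the same EEDS groups and 2500.0 and 515 in the same helveticoside groups. The immune marker PTPRC was 117 and 134 with EEDS and 135 and 155 with helveticoside. The fibroblast marker COL1A1 was 327 and 569 and then 237 and 389, and the endothelial marker CDH5 was 117 and 125 and then 160.4 and 183. CD14 was thus lower at the top doses and the other three were higher. In cultures measured in bulk, fewer cells of a kind and less RNA per cell cannot be told apart, and the part of these markers in the results below was not tested.

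Of the 10 members, 9 were well above background on all 8 arrays. The exception was DLL1, a Delta-like ligand, whose probe was not well above background on any array, so that no ratio is given for it. Taking the 9 members with a ratio, none was past 2-fold at 1.25 μg/mL EEDS, where 7.69% of all genes with a ratio were (4.28% upward and 3.41% downward). At 5 μg/mL, 1 was higher (JAG1) and 1 lower (NOTCH3), against 17.1% of all genes (8.05% upward and 9.07% downward). At 20 μg/mL, 1 was higher (RBPJ) and 2 were lower (NOTCH2 and NOTCH3), or 33.3% of the members against 32.3% of all genes (15.4% upward and 16.8% downward). With helveticoside, 2 members were higher at 3.75 nM (HES1 and HEY1), against 3.56% of all genes (1.88% upward and 1.68% downward). At 15 nM, 1 was higher (JAG1), against 14.1% (6.15% upward and 7.90% downward). At 60 nM, 1 was higher (JAG1) and 2 were lower (NOTCH2 and NOTCH3), again 33.3%, against 25.6% (11.5% upward and 14.2% downward). As a list, the members were therefore close to the background of all genes at both top doses, and their median log2 ratio was 0.20 at 20 μg/mL EEDS and 0.09 at 60 nM helveticoside, beside -0.00 and 0.03 over all genes. None of the 9 differed past 2-fold between the 2 vehicle controls, where 6.27% of all genes did (4.49% upward and 1.78% downward).

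**Figure D1:**
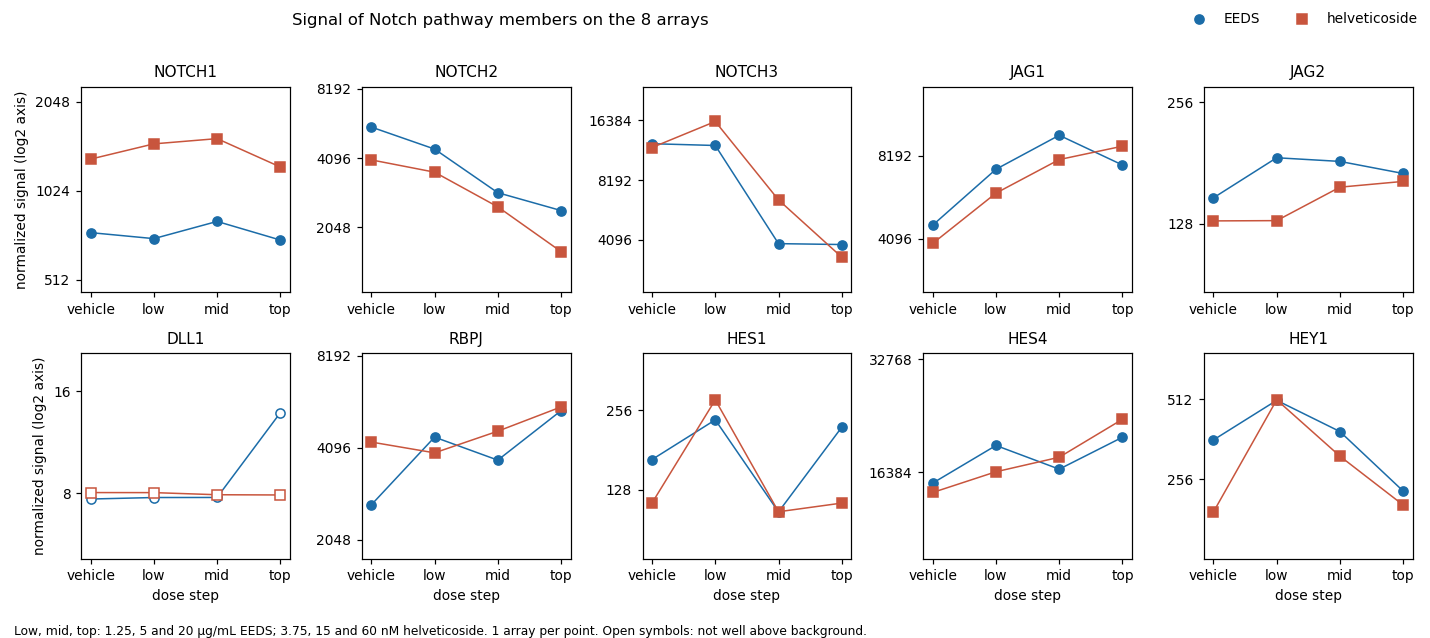
Normalized signal (log2 axis) of the 10 members against dose step, with 1 array per point, circles for EEDS and squares for helveticoside; open symbols mark arrays on which the probe was not well above background. NOTCH2 and NOTCH3 lie lowest at the top dose of helveticoside (1605 and 3342), JAG1 lies lowest in the 2 vehicle controls, and HES1 and HEY1 are highest at 3.75 nM.

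Among the receptors, NOTCH2 and NOTCH3 had lower signals at the upper doses of both agents, and the probe used for NOTCH1 did not move with dose. NOTCH2 (chromosome 1, 119911553 to 120069662 in GRCh38.p14) had a normalized signal of 5587 in the EEDS control, 4482 at 1.25 μg/mL, 2895 at 5 μg/mL and 2421 at 20 μg/mL. In the helveticoside series it was 4021 in the control, 3556 at 3.75 nM, 2513 at 15 nM and 1605 at 60 nM. Each step of dose thus had a lower signal than the step before it in both series. The log2 ratio at the top dose was -1.21 for EEDS, or 2.31-fold lower, and -1.33 for helveticoside, or 2.51-fold lower.

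A dose trend, a straight line through the log2 values of a series by dose step (the control and 3 doses that rise 4-fold per step), was fitted to all 19056 genes with limma, with 4 residual degrees of freedom from the 8 arrays. NOTCH2 fell by 0.42 on the log2 scale per step of EEDS (SE 0.07, limma adjusted p = 0.0198) and by 0.45 per step of helveticoside (SE 0.07, adjusted p = 0.0226). It was the only one of the 10 members called in either series at an adjusted p of 0.05, where 15.2% of all genes were called for EEDS (7.27% rising and 7.90% falling) and 11.3% for helveticoside (5.47% rising and 5.82% falling). With an unadjusted p under 0.05, 4 members passed in each series: NOTCH2, NOTCH3, RBPJ and DLL1 for EEDS, where the probe of DLL1 was not well above background, and NOTCH2, NOTCH3, JAG1 and HES4 for helveticoside. Of all genes, 33.4% did so for EEDS and 29.8% for helveticoside. The call for NOTCH2 was lost in each fit that left out a dose step or the controls of both series (adjusted p from 0.0743 to 0.285), and none of the 19056 genes was called in those fits.

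NOTCH3 (chromosome 19, 15159038 to 15200995) differed in shape. Its signal was 12491 in the EEDS control and 12235 at 1.25 μg/mL, then 3911 at 5 μg/mL and 3871 at 20 μg/mL. With helveticoside it was 11951 in the control, 16169 at 3.75 nM, 6502.5 at 15 nM and 3342 at 60 nM. The signal at the lowest dose was thus near the control with EEDS (log2 ratio -0.03) and above it with helveticoside. The low signals came at the middle and top doses. At 20 μg/mL EEDS it was 3.23-fold lower (log2 ratio -1.69) and at 60 nM helveticoside 3.58-fold lower (-1.84). The fitted slopes were -0.67 per step for EEDS (SE 0.21, limma adjusted p = 0.0924) and -0.68 for helveticoside (SE 0.21, adjusted p = 0.103), which missed the threshold. With the signal as scanned or with normexp, another background correction, both slopes passed it (EEDS adjusted p = 0.0359 and 0.0343; helveticoside adjusted p = 0.0444 and 0.0425).

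NOTCH1 (chromosome 9, 136494433 to 136546048) was read by a pair of probes that disagreed. The brighter probe, which stands for the gene here, gave 738.5, 705, 806 and 697 from the EEDS control to 20 μg/mL. In the helveticoside series it gave 1309.9, 1475, 1537 and 1232 from the control to 60 nM. All 6 log2 ratios to the control lay between -0.09 and 0.23, while the 2 vehicle controls differed by 0.83 (log2), more than any dose. The dimmer probe, printed in 10 spots per array, read 39.7 in the EEDS control and 32.7 at 1.25 μg/mL, then 89.0 at 5 μg/mL and 89.2 at 20 μg/mL. That is 2.24-fold and 2.25-fold above the control at the upper doses. It was not well above background in the helveticoside control or at 3.75 nM and read 48.2 at 15 nM and 67.7 at 60 nM, at least 1.03-fold and at least 1.44-fold above the bound for the control. The level of NOTCH1 against dose therefore depended on the probe that was read.

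Of the pair of NOTCH2 probes, the dimmer had lower signals at the middle and top doses as well. It read 1091, 848, 254 and 521.5 from the EEDS control to the top dose and 1001, 735.5, 336 and 337 in the helveticoside series. Its log2 ratio was -2.10 at 5 μg/mL and -1.07 at 20 μg/mL EEDS, and -1.57 at both 15 and 60 nM helveticoside. When the pair was averaged, the slopes of NOTCH2 were -0.46 (limma adjusted p = 0.0788) and -0.52 (adjusted p = 0.0696) and the call was lost. NOTCH2 has near-identical partial copies in the NOTCH2NL genes, and their part in the signal of either probe was not tested.

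**Figure D2:**
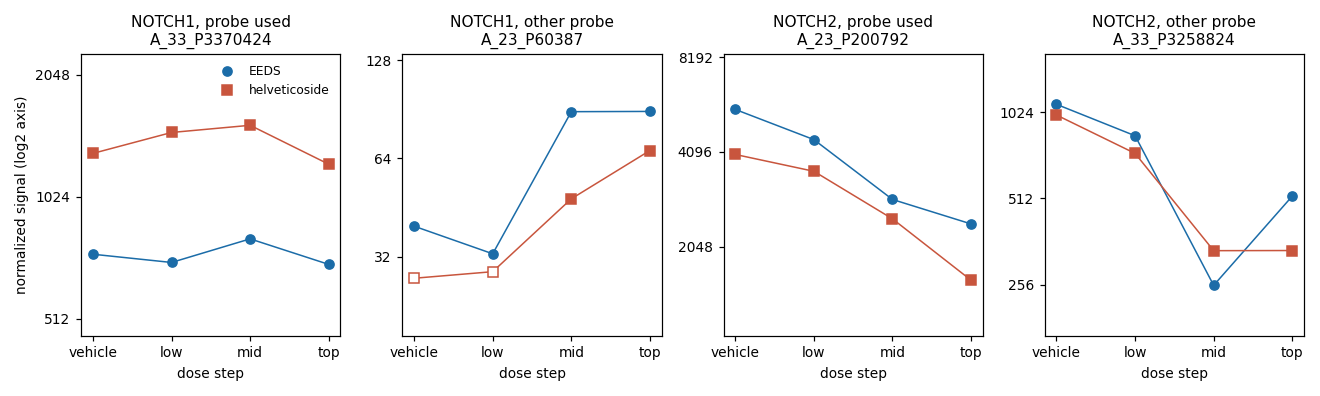
Normalized signal (log2 axis) against dose step for both probes of NOTCH1 and of NOTCH2, with 1 array per point, circles for EEDS and squares for helveticoside, and open symbols where the probe was not well above background. The NOTCH1 probes part at the upper doses, with 1 flat and the other reaching 89.2 at 20 μg/mL, while both NOTCH2 probes are lower at the middle and top doses than in the controls.

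The stretches of 250 bases before the transcription start of NOTCH2 (chr1:120069663-120069912) and of NOTCH3 (chr19:15200996-15201245), both on the minus strand in RefSeq's GRCh38.p14 annotation, are shown because these are the receptors with lower signals. They were searched on both strands for TGGGAA, the core that RBPJ binds, and neither holds it. NOTCH3 holds a match to CACGAG, an N box of the kind bound by HES proteins, from -211 to -206, and 5.58% of all 35116 RefSeq promoters of this length do. The sequences run 5′ to 3′ on the strand of the gene and have no capitals, since capitals mark TGGGAA.
NOTCH2: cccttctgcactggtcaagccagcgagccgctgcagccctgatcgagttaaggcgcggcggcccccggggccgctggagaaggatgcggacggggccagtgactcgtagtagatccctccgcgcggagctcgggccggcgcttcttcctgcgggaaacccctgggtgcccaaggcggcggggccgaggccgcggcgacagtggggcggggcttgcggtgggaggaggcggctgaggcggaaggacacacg
NOTCH3: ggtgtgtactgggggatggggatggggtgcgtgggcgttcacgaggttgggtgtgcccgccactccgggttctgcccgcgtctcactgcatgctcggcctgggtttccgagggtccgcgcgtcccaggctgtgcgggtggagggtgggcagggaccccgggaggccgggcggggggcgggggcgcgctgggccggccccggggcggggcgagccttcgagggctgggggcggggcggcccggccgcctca

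Among the ligands, JAG1 had a higher signal on every treated array than on either control. JAG1 (chromosome 20, 10637684 to 10673999) read 4587.5 in the EEDS control, 7307 at 1.25 μg/mL, 9699 at 5 μg/mL and 7571 at 20 μg/mL. In the helveticoside series it read 3939 in the control, 5989 at 3.75 nM, 7921 at 15 nM and 8854 at 60 nM. The highest signal was at the middle dose of EEDS and at the top dose of helveticoside. The largest ratios were 2.11-fold at 5 μg/mL EEDS and 2.25-fold at 60 nM helveticoside, whereas 20 μg/mL EEDS gave 1.65-fold. Its slopes were 0.26 per step for EEDS (SE 0.11, limma adjusted p = 0.184) and 0.39 for helveticoside (SE 0.11, adjusted p = 0.0875), neither of which passed. The helveticoside slope passed when each array was scaled to its 75th percentile (0.48, adjusted p = 0.0324) or when the fit was limited to genes well above background on each of the 8 arrays (adjusted p = 0.0369).

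JAG2 (chromosome 14, 105140995 to 105168776), the other Jagged ligand, was read in 10 spots per array with an SD between spots of 0.06 to 0.22 (log2). Its signal ran from 148 in the EEDS control to 186 at 1.25 μg/mL, and from 130.05 in the helveticoside control to 163 at 60 nM. No ratio was past 1.26-fold. The sign at 20 μg/mL EEDS (log2 ratio 0.20) turned with scaling to the 75th percentile (-0.20). DLL1 (chromosome 6, 170282206 to 170291078) read between 7.69 and 13.8 on the 8 arrays and was not well above background on any.

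RBPJ (chromosome 4, 26105449 to 26435131) read 2662.5 in the EEDS control, 4434.5 at 1.25 μg/mL, 3729 at 5 μg/mL and 5412 at 20 μg/mL. With helveticoside it read 4272.5 in the control, 3939 at 3.75 nM, 4638 at 15 nM and 5567.5 at 60 nM. All EEDS doses lay above the EEDS control, which was itself the lowest of the 8 arrays. The ratio at 20 μg/mL was 2.03-fold (log2 1.02), just past the threshold. It was 0.96, 0.96 and 0.88 on the log2 scale with the signal as scanned, with normexp and with the authors' processed values, and 0.34 against the helveticoside control. The slopes were 0.28 for EEDS (SE 0.09, limma adjusted p = 0.102) and 0.14 for helveticoside (SE 0.09, adjusted p = 0.419). The genome carries processed copies of RBPJ, and their part in this probe's signal was not tested.

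**Figure D3:**
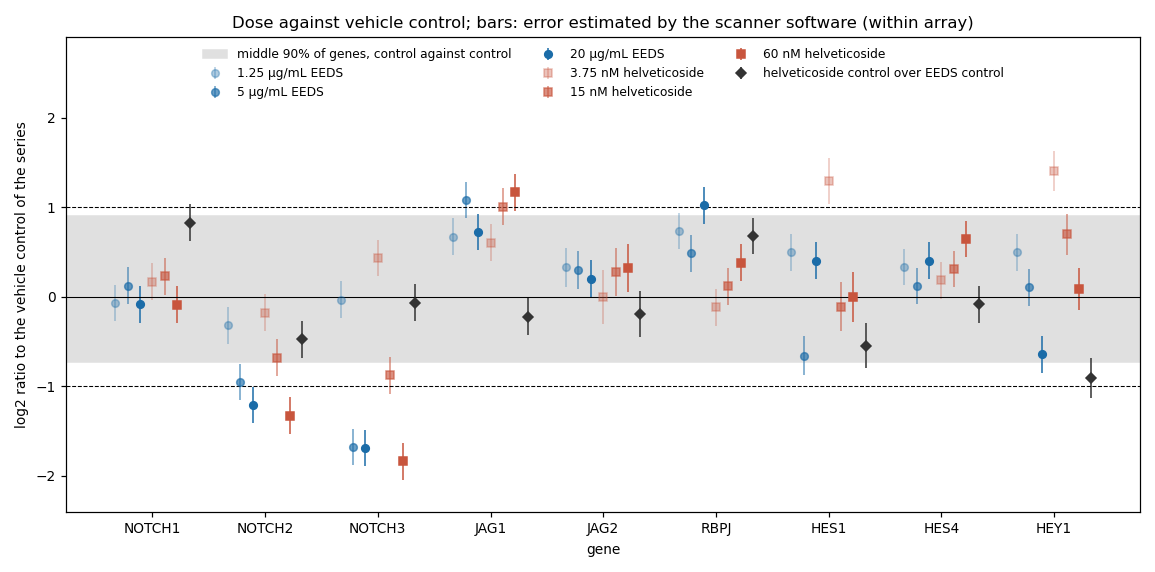
Log2 ratio of each dose to the vehicle control of its series for the 9 members with a ratio, with circles for EEDS, squares for helveticoside, darker symbols for higher doses and diamonds for the ratio of the 2 controls. Bars are the scanner software's within-array error, dashed lines mark 2-fold and the grey band is the middle 90% of all genes in the comparison of the controls. NOTCH3 reaches -1.84 and HEY1 1.404, while all ratios of NOTCH1, JAG2 and HES4 stay within 2-fold.

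The targets did not follow dose together. HES1 (chromosome 3, 194136148 to 194138732), a repressor that keeps cells from differentiating in many tissues, read 167 in the EEDS control, 235 at 1.25 μg/mL, 106 at 5 μg/mL and 221 at 20 μg/mL. In the helveticoside series it read 114 in the control, 279.75 at 3.75 nM, 106 at 15 nM and 114 at 60 nM. The 2 highest signals were thus at the lowest dose of each agent and the 2 lowest at the middle doses. At 3.75 nM helveticoside the ratio was 2.45-fold (log2 1.29, software error 0.26), and it was 0.89 on the log2 scale with the authors' processed values and 0.75 against the EEDS control. HES1 had slopes of 0.01 (SE 0.28) and -0.14 (SE 0.28), with limma adjusted p of 1.0 and 0.85.

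HEY1, a related repressor, had a similar high value at the lowest doses. It read 359, 507, 387 and 231 from the EEDS control to 20 μg/mL, and 192, 509, 312 and 204 from the helveticoside control to 60 nM. The value at 3.75 nM was 2.65-fold above its control (log2 1.404), whereas it was 0.96 on the log2 scale with the authors' processed values and 0.50 against the EEDS control. The 2 controls differed by 1.87-fold, with the helveticoside control the lowest of the 8 arrays. At 20 μg/mL EEDS the log2 ratio was -0.64, and its sign turned against the helveticoside control (0.26). No slope passed (EEDS -0.23, SE 0.25, limma adjusted p = 0.626; helveticoside -0.04, SE 0.25, adjusted p = 0.979).

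HES4 (chromosome 1, 998964 to 1000097), a further repressor of the family, read 15348, 19325, 16712.5 and 20325 from the EEDS control to 20 μg/mL. In the helveticoside series it read 14487.5, 16450.0, 17980.0 and 22691, each dose above the step before it. All 6 treated arrays lay above both controls, by 1.32-fold at 20 μg/mL EEDS and 1.57-fold at 60 nM helveticoside. Scaling to the 75th percentile put the latter past 2-fold (log2 1.04). The slope for helveticoside was 0.21 (SE 0.06, limma adjusted p = 0.0755) and that for EEDS 0.10 (SE 0.06, adjusted p = 0.286).

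The stretches of 250 bases before the start of HES1 (chr3:194135898-194136147, plus strand) and HES4 (chr1:1000098-1000347, minus strand) are shown since these targets hold the RBPJ core, here in capitals. HES1 holds it at -84 to -79 and at -70 to -65, and HES4 at -76 to -71. TGGGAA occurs in 20.8% of all RefSeq promoters of this length, and the longer GTGGGAA, which contains it and is found in HES1, HES4 and RBPJ, in 5.43%. HES1 holds CACGAG at -132 to -127 and at -58 to -53, and CACGCG, another site of HES and HEY proteins, at -120 to -115 and -47 to -42 on the opposite strand. CACGCG occurs in 9.72% of promoters, and CACGTG, in 6.34% of promoters, is in none of the 12 promoters of the 8 members that the RefSeq table holds. DLL1 and the target HEY1 had no promoter there and were not searched. A match describes letters in these windows and shows no binding.
HES1: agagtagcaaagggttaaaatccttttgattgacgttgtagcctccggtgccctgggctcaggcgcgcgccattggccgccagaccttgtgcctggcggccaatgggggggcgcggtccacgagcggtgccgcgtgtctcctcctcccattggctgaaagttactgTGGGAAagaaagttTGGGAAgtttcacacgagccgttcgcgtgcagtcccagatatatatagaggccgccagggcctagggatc
HES4: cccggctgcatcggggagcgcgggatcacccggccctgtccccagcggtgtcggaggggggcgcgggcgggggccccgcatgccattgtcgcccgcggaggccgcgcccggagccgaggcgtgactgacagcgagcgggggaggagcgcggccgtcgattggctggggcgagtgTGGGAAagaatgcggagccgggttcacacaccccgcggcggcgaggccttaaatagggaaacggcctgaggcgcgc

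**Figure D4:**
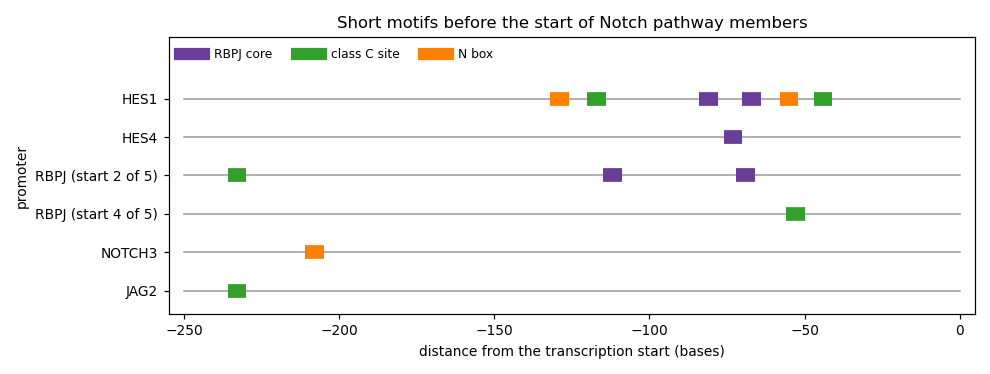
Matches to the RBPJ core, the class C site and the N box, on either strand, in the 250 bases before the start of the member promoters that hold any, plotted by distance from the transcription start in bases. HES1 holds 6 matches, with both RBPJ cores between -84 and -65, and the RBPJ promoter at the second of 5 starts holds 2 cores.

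Helveticoside is a constituent of EEDS, so the slopes of both agents were set against each other in the same fit. No gene of the 19056 differed at a limma adjusted p of 0.05 (0.00%), and 2.76% did at an unadjusted p under 0.05, none of them a member. The difference in slope, EEDS minus helveticoside, was 0.02 for NOTCH2 with a 95% interval from -0.21 to 0.26, and 0.01 for NOTCH3 with an interval from -0.75 to 0.77. For JAG1 it was -0.13 (-0.54 to 0.27), for RBPJ 0.14 (-0.19 to 0.48) and for HES4 -0.11 (-0.31 to 0.09). The widest intervals were those of HES1 (0.15, from -0.84 to 1.13) and HEY1 (-0.19, from -1.07 to 0.70). These widths leave room for unequal slopes, and doses of an extract and of a compound are matched by step only.

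Over the 8 arrays, the genes whose log2 signal was most like that of a member were listed for HES1, NOTCH1 and JAG1 among 11493 other genes with such a call on each array. These arrays share series and dose, so these values are descriptions. For JAG1 they were PCDH1, a protocadherin (Pearson r 0.995), C9orf40 (0.991) and EPN2, an endocytic adaptor (0.984), and 407 genes had an r above 0.9. PCDH1 read 1334 in the EEDS control and 4791 at 5 μg/mL, and 1136 in the helveticoside control and 4201 at 60 nM. For NOTCH1 the values were 0.995 for SSX2, 0.995 for CFAP107 and 0.993 for EYS, with 535 genes above 0.9, and all 3 had higher signals on each helveticoside array than on each EEDS array, as NOTCH1 had. SSX2 has near-identical copies, so its signal is uncertain. HES1 had 3 genes above 0.9 (RHPN2 0.909, DUSP28 0.905 and LITAF 0.904). Among the members themselves, r was 0.83 between NOTCH2 and NOTCH3, 0.54 between HES1 and HEY1 and -0.79 between NOTCH2 and RBPJ.

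The rest of the pathway was read through 62 other genes, of which 60 were on the array. At 20 μg/mL EEDS, 52 had a ratio and 11 were past 2-fold upward and 10 downward (40.4%, against 32.3% of all genes). At 60 nM helveticoside, 48 had a ratio and 9 were past 2-fold upward and 7 downward (33.3%, against 25.6%). The median log2 ratio was 0.01 and 0.12. With scaling to the 75th percentile, which moved the median of all genes at 20 μg/mL to -0.10, the counts were 10 upward and 15 downward for EEDS. In the dose trends, 11 of 60 rose and 4 fell with EEDS, against 7.27% and 7.90% of all genes, and 7 rose and 4 fell with helveticoside, against 5.47% and 5.82%.

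Of 9 proteases and gamma-secretase subunits, 3 were past 2-fold at 20 μg/mL EEDS, all upward (33.3%, against 32.3% of all genes, 15.4% upward). At 60 nM helveticoside 3 were past 2-fold, again all upward (33.3%, against 25.6%, 11.5% upward). None of the proteases and gamma-secretase subunits was past 2-fold downward at the top dose of either agent. ADAM10, which makes the first cut after ligand binding, had log2 ratios of 1.11 and 1.07 at the top doses of EEDS and helveticoside, and rose in both trends (limma adjusted p = 0.0415 and 0.0428). ADAM17, a related sheddase, had 1.53 and 1.06 (adjusted p = 0.0346 and 0.0754).

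Of 5 glycosyltransferases, 1 was past 2-fold at 20 μg/mL EEDS (20.0%, against 32.3% of all genes) and 2 at 60 nM helveticoside (40.0%, against 25.6%). Each of these was downward. LFNG, a Fringe that lengthens sugars on the receptor and alters its response to ligands, had the lowest ratio of the 5 at the top dose of both agents. Its log2 ratios were -1.68 and -3.41 at 5 and 20 μg/mL EEDS and -1.27 and -3.42 at 15 and 60 nM helveticoside, and it fell in both trends (limma adjusted p = 0.0385 and 0.0447). The other Fringes, MFNG and RFNG, had 0.41 and 0.60 at 20 μg/mL. POGLUT1, which adds glucose to the receptor, had -0.78 at 20 μg/mL and -1.18 at 60 nM.

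Among genes of trafficking and turnover, 1 of 12 was past 2-fold upward and 2 downward with EEDS (25.0%, against 32.3% of all genes), and 1 of 10 and 2 with helveticoside (30.0%, against 25.6%). MIB1, a ubiquitin ligase for the ligands, had -1.61 and -2.45, and its trend was called for helveticoside (limma adjusted p = 0.045) and not for EEDS (0.0964). NEURL1, another such ligase, had -2.27 and -1.50, and FBXW7, which targets the Notch intracellular part for degradation, had 2.10 and 1.17. Both were called with EEDS (adjusted p = 0.0425 and 0.0333) and not with helveticoside (0.118 and 0.123), and no difference between the agents was called. Of the remaining receptors and ligands, DLL3 had -1.34 and -1.81 and DLK1 had 0.42 and 0.45.

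The coactivators held ratios in both directions. Of the 8 with a ratio at 20 μg/mL EEDS, 4 were past 2-fold upward and 2 downward, against 15.4% and 16.8% of all genes, and of the 7 at 60 nM helveticoside, 2 and 1, against 11.5% and 14.2%. The acetyltransferases KAT2A and KAT2B, paralogs, went opposite ways. KAT2A had -2.18 and -2.36 and fell in both trends (limma adjusted p = 0.0185 and 0.0199), whereas KAT2B had 1.16 and 1.11 and rose (adjusted p = 0.039 and 0.0388). EP300, a further acetyltransferase, had 1.17 and 1.10. The Mastermind genes did not move together. MAML3 had -1.71 and -0.82 and was called in neither trend (limma adjusted p = 0.0567 and 0.381). MAML1 had 0.75 and 0.81 and rose in both (adjusted p = 0.0481 and 0.045). MAML2 had at least 1.62 at 20 μg/mL EEDS, where its control was not well above background, and no ratio at 60 nM. It was called rising with EEDS (adjusted p = 0.0421) and not called with helveticoside (0.728).

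Of 11 corepressors with a ratio, 3 were past 2-fold upward and 1 downward at 20 μg/mL EEDS (36.4%, against 32.3% of all genes), and 3 and 0 at 60 nM helveticoside (27.3%, against 25.6%). The lower one was TLE2, with -1.15 and -0.84. SPEN, which holds RBPJ targets silent, had 1.77 and 1.33 and rose in both trends (limma adjusted p = 0.0231 and 0.0467), although the 2 vehicle controls differed by 1.49 for it. The Groucho family members TLE3 and TLE4, which HES proteins recruit, rose in both as well (TLE3 adjusted p = 0.0361 and 0.0215; TLE4 adjusted p = 0.0313 and 0.0418). TLE4 had 1.999 and 1.87, and TLE3 had 1.31 with EEDS and at least 2.28 with helveticoside, whose control was not well above background. Of 9 further targets, 4 had a ratio at either top dose. HEYL had -1.43 and -1.07 at the top doses and was already at -2.07 at 1.25 μg/mL EEDS, and HES6 had -1.41 and -0.58. No dose trend of HEYL or HES6 was called. HES2 fell in the EEDS trend (slope -1.14, limma adjusted p = 0.0237) and missed the threshold with helveticoside (-0.84, adjusted p = 0.0512). Its ratios at the top doses were bounds, at most -1.38 and at most -0.22, since its probe was not well above background there.

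**Figure D5:**
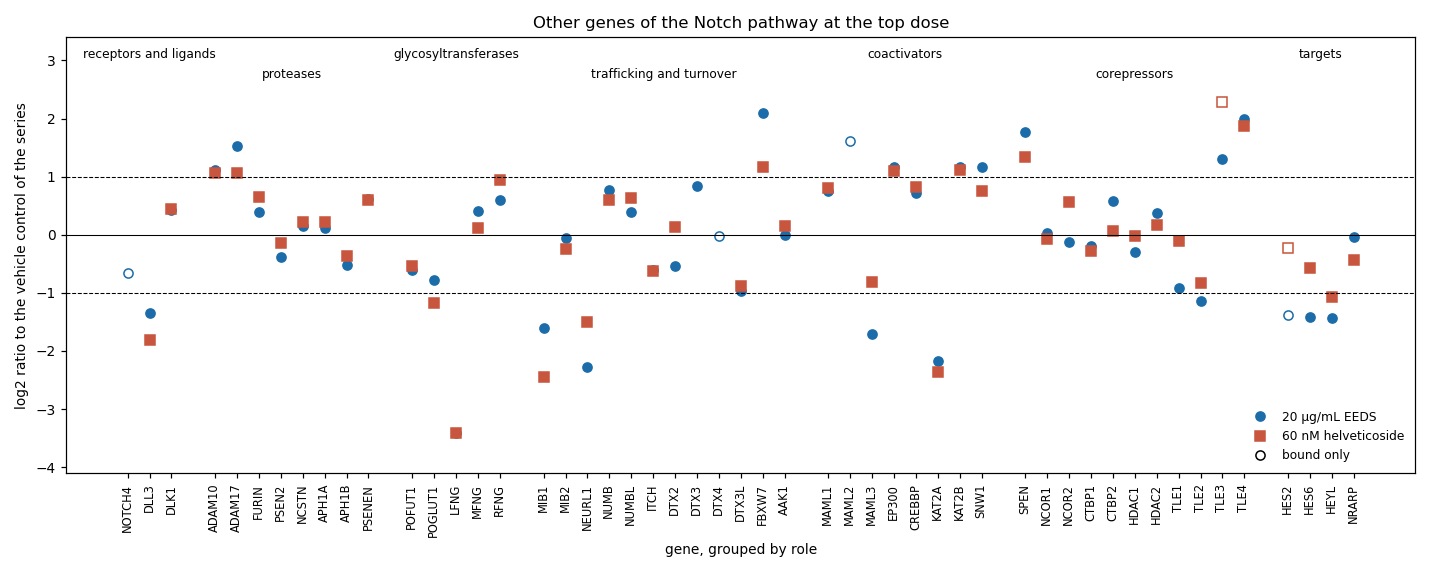
Log2 ratio to the vehicle control at 20 μg/mL EEDS (circles) and 60 nM helveticoside (squares) for other pathway genes with a ratio, grouped by role, with dashed lines at 2-fold and open symbols for ratios known only as bounds. LFNG lies lowest at -3.41 and -3.42, KAT2A lies at -2.18 and -2.36, and TLE4 at 1.999 and 1.87.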

How the data were processed

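Total RNA of A549 cells was hybridized to 8 one-colour Agilent whole human genome arrays. Per the labels, RNA of 3 cultures was pooled for each array. For each spot the authors deposited intensity values from the scanner software: a median signal, its local background, and a processed signal, already background-subtracted, with an error estimate and spot calls. Per the labels the dye is Cy5, although the files hold the green channel. No slide or scan information was found in the files. A second deposited table holds the authors' processed intensity on a linear scale. From its values, this is the median signal less the local background, quantile-normalized separately for each agent, with 2424 blanks, and it served as an alternative.

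Control and outlier spots were left out, spots of a probe were averaged, and quantile normalization over the 8 arrays and the log2 scale followed. Outliers took every spot of 22 among 34127 probes. By accession, 24812 probes matched 19056 genes (names as in GRCh38.p14), and the brightest probe stood for each of 4797 genes that had several. A probe counted as well above background when at least 50% of its spots were. Where 1 of the arrays compared was not, a bound replaced the ratio (the higher of its own signal and the lowest signal well above background on that array), and where neither was, no ratio was given. Ratios have no test, since each dose had 1 array. Precision is limited by the number of arrays.

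Trends were fitted in R 4.3.3 with limma 3.58.1 and statmod 1.5.0, using robust estimation and a variance trend, an intercept and slope per series, and Benjamini-Hochberg adjustment over 19056 genes. Values under 1.4 times the local background were set to the higher of themselves and the lowest detected signal. These p-values measure the scatter of arrays about a line, which stands in for replicates. On simulated data for the EEDS trend, with 200 of 19056 genes changed, 92 were called, of which 2 were unchanged. The fit found 67% of slopes of 1 and 23% of slopes of 0.5. These shares belong to that setting, with independent noise and few changed genes, whereas 15.2% of all genes were called for EEDS in the data. Other steps used pandas 2.3.3, numpy 2.4.6, scipy 1.17.1 and matplotlib 3.10.9 under Python 3.11.15.

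The members and lists were chosen with earlier results of these data known. The genes named are all members, other pathway genes past 2-fold in the same direction at both top doses, up to 2 per class with the largest ratio at 20 μg/mL EEDS, and the 3 genes most like HES1, NOTCH1 and JAG1. TLE2, MFNG, RFNG, HES2, MAML1 and MAML2 were named after their values were seen. The alternatives were other normalizations, background corrections, probe rules, filters, controls and folds, and leaving out a dose step. Some listed genes are counted but not reported singly here. Promoters are RefSeq's, without the bases after the start.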

Additional observations from a re-analysis of the deposited data

How the results depend on the processing

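Each array stands for a pool without replicates, and the trend calls rest on 4 residual degrees of freedom. No member's ratio past 2-fold and no called slope changed sign under any alternative, whereas smaller ratios did, among them JAG2 (-0.20 with scaling to the 75th percentile) and HEY1 (0.26 against the helveticoside control) at 20 μg/mL EEDS, RBPJ at 5 μg/mL (-0.20 against the helveticoside control) and NOTCH1 at 20 μg/mL (0.54 with the mean over probes). The 3 members past 2-fold at 20 μg/mL EEDS became 1 against the helveticoside control (NOTCH3), 5 at 1.5-fold and 1 at 3-fold, and the 3 at 60 nM helveticoside became 1 at 3-fold. With scaling to the 75th percentile, the latter were 2 upward and 2 downward. The 21 other pathway genes past 2-fold at 20 μg/mL EEDS became 33 at 1.5-fold and 9 at 3-fold. The 16 at 60 nM helveticoside became 10 with the signal as scanned, 10 with normexp, 9 with the authors' processed values, 28 at 1.5-fold and 6 at 3-fold; the cause was not tested.

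For EEDS, 1 member had a dose trend (NOTCH2), and the count was 2 with scaling to the 75th percentile, which adds RBPJ. It was 2 also with the signal as scanned, with normexp, with the authors' processed values and with genes well above background on all 8 arrays, each of which adds NOTCH3. For helveticoside, the count of 1 became 3 with scaling to the 75th percentile (JAG1 and HES4 added), 2 with the signal as scanned and 2 with normexp (NOTCH3 added), and 3 with genes well above background on all 8 arrays (NOTCH3 and JAG1 added). For both agents it was 0 with the mean over probes, where NOTCH2 had limma adjusted p of 0.0788 and 0.0696. It was also 0 with only the 4 arrays of the series, and 0 without the lowest dose, without the middle dose, without the top dose or without the controls, where limma called 0 of all genes and fewer arrays entered the fit. The count for the difference between agents was 0 in all 14 fits.

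Of the members' log2 ratios under an alternative, 458 stayed within the spread between the 2 controls (SD 0.50) and 28 moved further, all of them against the other series' control or with the mean over probes. Many of the 458 could not move. The filters on the background call left each ratio as it was, and so did the mean over probes for members with 1 probe. Against the other series' control, the shift is the difference between the 2 controls. Of the members' slopes, 255 kept their side of the threshold, 12 lost it and 11 gained it. No paired analysis was possible because each group holds 1 array and the labels give no replicate numbers.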

Other observations

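The vehicle controls of the 2 series differed past 2-fold for 3 of the 51 other pathway genes with a ratio. These 3 genes were chosen for naming after their values were seen. Set as helveticoside control over EEDS control, APH1A, a gamma-secretase subunit, had a log2 ratio of -2.16, NCOR1, a corepressor, had 1.51 and SPEN had 1.49. Within each series, APH1A stayed between 0.08 and 0.21 and NCOR1 between -0.08 and 0.22 at every dose.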
